A study of Mus musculus with 20 samples.

Results

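The 40 genes described here encode enzymes of central carbon metabolism, from the entry of glucose and fructose to the tricarboxylic acid (TCA) cycle, together with the kinases that restrain pyruvate dehydrogenase. They were taken by gene symbol from the gene table of a mouse kidney RNA-seq study, and all 40 were found among its 13842 genes. The set holds 14 genes of glycolysis, 2 lactate dehydrogenase genes, 5 genes of gluconeogenesis and fructose use, 3 genes of the pyruvate dehydrogenase complex, 3 pyruvate dehydrogenase kinase genes, 11 TCA cycle genes and 2 genes of the cytosolic dehydrogenases that feed the cycle.

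Kidneys came from male, age-matched mice in 4 groups of 5, and each kidney was sequenced once (20 kidneys). KDM6ATubKO mice carried a floxed Kdm6a allele on their single X chromosome and the Pax8-Cre transgene (Pax8Cre+ Kdm6afl/Y), and KDM6ACtrl mice carried Pax8-Cre without the floxed allele, so that Cre was shared by every animal. Kdm6a encodes KDM6A, a demethylase of histone H3 lysine 27. Pax8-Cre acts along the length of the tubule rather than in a single segment, and it leaves vessels, stroma and leukocytes untouched. Within each genotype, kidneys were taken 7 days after unilateral ureteral obstruction (UUO), in which the left ureter is tied off, or after a sham operation. RNA was extracted from kidney homogenates. The study used these groups to ask what loss of KDM6A from tubule cells does to the transcriptome of healthy and obstructed kidneys.

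Levels are the deposited FPKM values, fragment counts scaled by exon length and by the mapped fragments of each library. They are per length and so can be set beside each other between genes. The number of reads behind each value is unknown. FPKM summed over the table to between 302995 and 316964 in KDM6ATubKO UUO kidneys and 352444 and 387375 in KDM6ATubKO sham kidneys, against 298467 to 316828 in KDM6ACtrl UUO kidneys and 347739 to 360923 in KDM6ACtrl sham kidneys. The sums of UUO and sham kidneys did not overlap. Kdm6a itself was at 1.61, 0.862, 1.57, 0.924 and 1.05 FPKM in KDM6ATubKO sham kidneys, against 2.33, 2.14, 1.94, 1.76 and 2.10 FPKM in KDM6ACtrl sham kidneys, with no overlap and an adjusted p of 0.0502. After UUO it was at 3.46, 2.03, 4.21, 3.06 and 2.46 FPKM in KDM6ATubKO kidneys, against 2.30, 3.32, 3.24, 2.28 and 3.67 FPKM in KDM6ACtrl kidneys. These values cover all exons and every cell type of the kidney, so they do not check the deletion in tubule cells. The 20 marker genes of the proximal tubule looked up to check the tissue were all present.

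Glycolysis splits glucose into pyruvate in the cytosol. Gluconeogenesis runs from lactate, glutamine carbon or glycerol back to glucose, and in the kidney it is a function of the proximal tubule, as is the use of fructose. Pyruvate enters mitochondria, where the pyruvate dehydrogenase complex turns it into acetyl-CoA for the TCA cycle. The proximal tubule gets most of its ATP from the oxidation of fatty acids and other fuels in mitochondria, whereas the distal nephron and leukocytes rely more on glucose.

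The promoters of Pck1, G6pc and Hk2 are shown because, after UUO, Hk2 had the largest rise and G6pc the largest fall of the 40 on the log2 scale, and Pck1 is the gene that commits carbon to glucose. Each runs from 250 bases before to 50 bases after the start of the RefSeq transcript in GRCm38, and 39 of the 40 genes matched the RefSeq promoter table (all but Idh3a). In Pck1 (chr2:173152823-173153122, plus strand), capitals mark ATTAAC, the other strand of the word GTTAAT to which hepatocyte nuclear factor 1 proteins bind, and TTACGTCA, a form of the cAMP response element. In G6pc (chr11:101367466-101367765, plus strand) they mark GTTAAT. In Hk2 (chr6:82774405-82774704, minus strand) they mark CACGT, the other strand of ACGTG, the core word of hypoxia-inducible factor sites.
Pck1: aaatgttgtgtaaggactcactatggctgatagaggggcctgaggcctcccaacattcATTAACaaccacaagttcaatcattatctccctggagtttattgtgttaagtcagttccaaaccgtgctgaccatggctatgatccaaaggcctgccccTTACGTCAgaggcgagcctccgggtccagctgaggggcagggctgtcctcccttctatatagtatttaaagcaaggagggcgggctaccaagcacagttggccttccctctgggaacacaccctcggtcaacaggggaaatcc
G6pc: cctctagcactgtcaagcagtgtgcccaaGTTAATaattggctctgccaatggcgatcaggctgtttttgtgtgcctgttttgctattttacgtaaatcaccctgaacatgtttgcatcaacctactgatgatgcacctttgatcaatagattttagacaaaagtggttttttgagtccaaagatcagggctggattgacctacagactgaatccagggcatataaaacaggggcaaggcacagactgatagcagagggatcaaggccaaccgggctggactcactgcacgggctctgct
Hk2: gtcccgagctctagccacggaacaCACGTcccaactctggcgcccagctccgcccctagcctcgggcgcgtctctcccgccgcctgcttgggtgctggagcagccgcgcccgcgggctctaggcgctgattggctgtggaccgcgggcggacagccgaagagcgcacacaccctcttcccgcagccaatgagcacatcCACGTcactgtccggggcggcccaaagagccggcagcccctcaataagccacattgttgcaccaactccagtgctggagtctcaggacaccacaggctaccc
Searched on both strands, GTTAAT stood in any promoter of 4 of the 39 genes (G6pc, Khk, Pck1 and Pdha1), against 8.2% of the 27025 genes in the promoter table. The cAMP response element, TTACGTCA or TGACGTCA, stood in any promoter of 4 of the 39 (Ldha, Mdh2, Ogdh and Pck1), against 2.6% of all genes there. The hypoxia core, ACGTG or GCGTG, stood in any promoter of 28 of the 39, against 46.7% of all genes there. These are matches of letters only.

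The pyruvate kinase gene Pkm is shown for a different reason, since its transcripts were listed separately and 1 pair of exons tells its M1 and M2 forms apart. The listed transcripts Pkm-202 and Pkm-201 are 2041 and 2432 bases long, so they also differ outside that pair. Their FPKM are therefore not a measure of these exons alone. M1 is the form of muscle and brain, and M2 is the form of most proliferating and many epithelial cells. Pkm-202 carries the M1 exon (chr9:59675029-59675195, plus strand) and Pkm-201 carries the M2 exon (chr9:59675568-59675734, plus strand), each as exon 9 and each 167 bases long in GRCm38. Capitals mark the 64 positions at which the 2 exons differ, and the remaining 103 bases (61.7%) were identical.
Pkm-202, M1 exon: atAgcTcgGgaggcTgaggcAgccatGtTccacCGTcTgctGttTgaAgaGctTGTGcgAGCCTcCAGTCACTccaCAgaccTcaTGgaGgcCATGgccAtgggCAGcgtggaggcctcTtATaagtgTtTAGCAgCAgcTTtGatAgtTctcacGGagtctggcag
Pkm-201, M2 exon: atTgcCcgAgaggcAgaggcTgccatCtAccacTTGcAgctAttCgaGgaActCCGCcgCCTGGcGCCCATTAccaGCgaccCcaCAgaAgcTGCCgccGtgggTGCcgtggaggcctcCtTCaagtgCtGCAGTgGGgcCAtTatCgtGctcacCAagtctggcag

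After UUO most of the 40 genes fell and a few isozymes of glycolysis and lactate metabolism rose, in both genotypes. In KDM6ATubKO kidneys 5 of the 40 rose and 29 fell (limma on log2(FPKM + 1), Benjamini-Hochberg adjusted p below 0.05), beside 57.9% of all 13842 genes higher and 16.7% lower. In KDM6ACtrl kidneys 4 of the 40 rose and 30 fell, beside 56.7% of all genes higher and 15.1% lower. The median log2 fold change of the 40 was -0.80 in KDM6ATubKO kidneys, against 0.387 over all genes, and -0.53 in KDM6ACtrl kidneys, against 0.35 over all genes. Groups did not overlap for 4 genes higher and 27 lower in KDM6ATubKO kidneys, beside 50.1% and 12.6% of all genes, and for 4 higher and 24 lower in KDM6ACtrl kidneys, beside 45.8% and 10.5% of all genes.

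Fold changes after UUO stand beside an upward shift of the median of all genes. No gene of the deposited table had a highest group mean under 0.5006 FPKM, and the part of such a selection in the shift was not tested. Rescaling each kidney to its upper quartile left the median of all genes at 0.18 in KDM6ATubKO and 0.14 in KDM6ACtrl kidneys, and quantile normalization at -0.04 and -0.05. Of the genes called in KDM6ATubKO kidneys, 77.7% were higher as deposited, 63.6% after upper quartile rescaling and 47.6% after quantile normalization. In KDM6ACtrl kidneys these shares were 79.0%, 63.2% and 45.2%. Pfkl was the single member whose sign turned with a scaling and was called. The RNA is from whole kidneys, so that fewer cells of a type and less RNA per cell cannot be told apart. Summed FPKM of 20 proximal tubule markers was 966 to 2376 in KDM6ATubKO UUO kidneys and 5133 to 5908 in KDM6ATubKO sham kidneys, against 1192 to 2227 in KDM6ACtrl UUO kidneys and 4078 to 5703 in KDM6ACtrl sham kidneys. All 20 fell in both genotypes, with a median log2 fold change of -2.02 in KDM6ATubKO and -1.49 in KDM6ACtrl kidneys, and none was at 0 in every kidney of a group. All 12 macrophage markers rose in both, to a sum of 589 to 942 FPKM in KDM6ATubKO UUO kidneys against 41.0 to 55.8 FPKM in sham kidneys of that genotype, and to 509.6 to 1096 FPKM in KDM6ACtrl UUO kidneys against 30 to 85.1 FPKM in sham kidneys. The part of these shifts in the values below was not tested. A gene-wise F-test with library size as a covariate called none of the 40 after UUO. Its covariate, the sum of log2(FPKM + 1) over genes under the upper quartile, shared 98.8% of its variance with surgery in KDM6ATubKO and 96.6% in KDM6ACtrl kidneys.

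**Figure D1:**
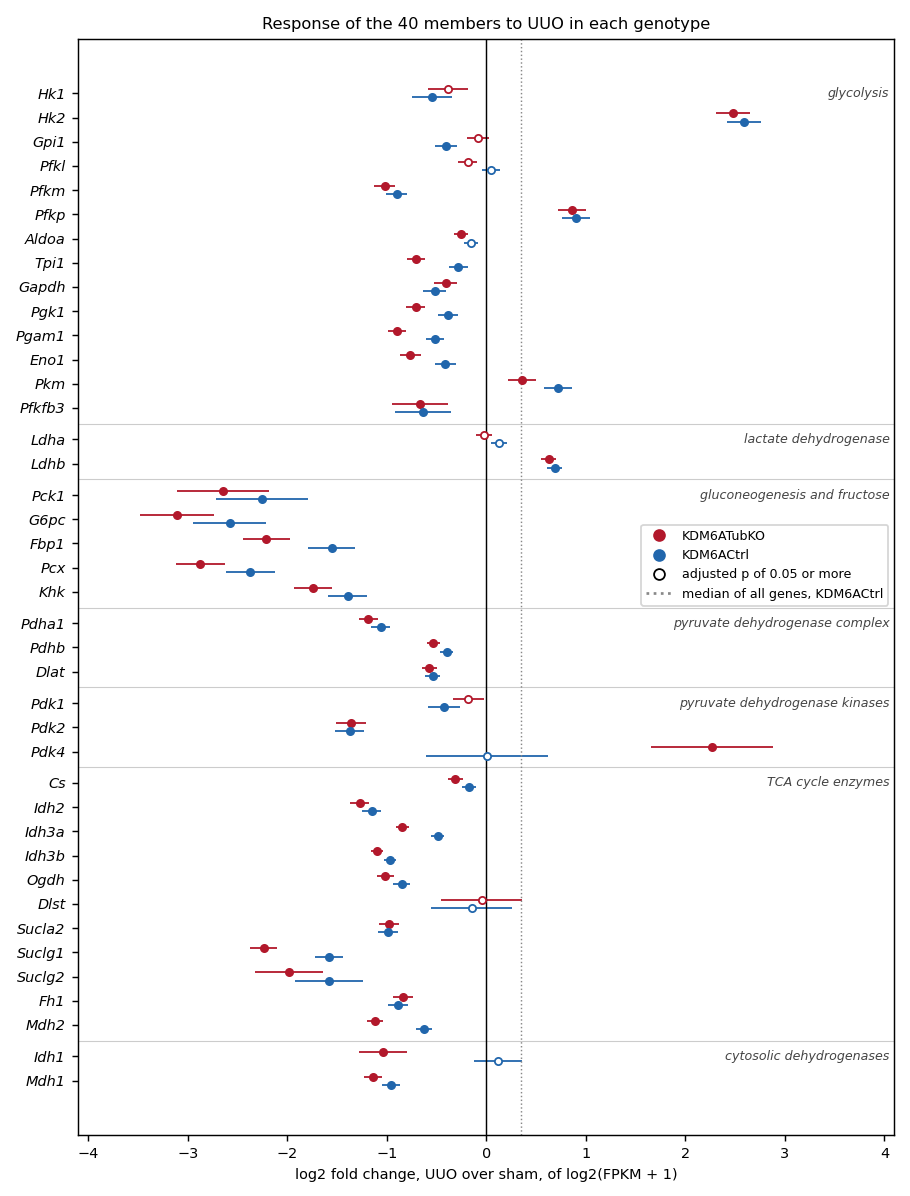
Log2 fold change of log2(FPKM + 1), UUO against sham, for each of the 40 genes grouped by role, with standard errors, in KDM6ATubKO kidneys (red) and KDM6ACtrl kidneys (blue). Open symbols did not pass the test at an adjusted p of 0.05, and the dotted line is the median of all genes in KDM6ACtrl kidneys at 0.35. G6pc lies farthest to the left and Hk2 farthest to the right in both genotypes.

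The 5 genes of gluconeogenesis and fructose use fell in both genotypes, with a median log2 fold change of -2.64 in KDM6ATubKO and -2.25 in KDM6ACtrl kidneys. Pck1, the cytosolic phosphoenolpyruvate carboxykinase, was at 38.1, 598, 189.5, 107 and 290.0 FPKM in KDM6ATubKO UUO kidneys and 919.6, 1177, 774, 1282 and 1245 FPKM in KDM6ATubKO sham kidneys. It was at 248, 343, 275, 266 and 164 FPKM in KDM6ACtrl UUO kidneys and 1459, 1058, 981, 1441 and 1180.0 FPKM in KDM6ACtrl sham kidneys. No UUO kidney reached its sham group, and the log2 fold change was -2.64 (SE 0.46, adjusted p = 4.17e-05) in KDM6ATubKO and -2.25 (SE 0.46, adjusted p = 0.000253) in KDM6ACtrl kidneys. The KDM6ATubKO UUO kidneys were spread far more widely than the KDM6ACtrl UUO kidneys, with mouse 1 lowest and mouse 2 highest.

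G6pc, the glucose-6-phosphatase subunit that releases free glucose, showed the same spread. Its level was 4.86, 40.1, 15.1, 8.44 and 11.4 FPKM in KDM6ATubKO UUO kidneys, against 106, 143, 73.4, 181 and 103 FPKM in KDM6ATubKO sham kidneys. In KDM6ACtrl mice it was 16.5, 29.2, 27.8, 22.1 and 12.9 FPKM in UUO kidneys, against 112, 117, 127, 151 and 143 FPKM in sham kidneys. The means were 7.60-fold lower after UUO in KDM6ATubKO kidneys (adjusted p = 3.56e-07) and 5.99-fold lower in KDM6ACtrl kidneys (adjusted p = 4.64e-06).

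Pyruvate carboxylase (Pcx), which makes oxaloacetate from pyruvate in mitochondria, fell by a similar factor. It was at 8.71, 36.7, 15.4, 10.6 and 21.1 FPKM in KDM6ATubKO UUO kidneys, against 123, 132, 104, 141 and 130.2 FPKM in sham kidneys. In KDM6ACtrl mice it was at 29.6, 28.99, 33.9, 28.5 and 21.97 FPKM in UUO kidneys, against 154, 146, 136, 164 and 153 FPKM in sham kidneys. UUO means were 6.82-fold lower in KDM6ATubKO kidneys (adjusted p = 4.29e-09) and 5.28-fold lower in KDM6ACtrl kidneys (adjusted p = 7.38e-08). Fbp1, the fructose-1,6-bisphosphatase of liver and kidney, was at 42.2, 172, 104, 88.1 and 119 FPKM in KDM6ATubKO UUO kidneys, against 467, 492, 393, 433 and 450.4 FPKM in sham kidneys. In KDM6ACtrl kidneys Fbp1 was at 119.6, 126, 169, 153 and 129.7 FPKM after UUO, against 334, 362, 419, 471 and 471 FPKM after sham surgery. Khk, the ketohexokinase that traps fructose, averaged 65.1 ± 30.5 FPKM in KDM6ATubKO UUO and 205 ± 13.8 FPKM in KDM6ATubKO sham kidneys, and 68.6 ± 10.1 FPKM in KDM6ACtrl UUO and 181 ± 14.95 FPKM in KDM6ACtrl sham kidneys (SD, n = 5 each).

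In all 5 genes mouse 1 of the KDM6ATubKO UUO group was lowest and mouse 2 highest. The proximal tubule markers ranked these kidneys the same way at both ends: the sodium-phosphate carrier gene Slc34a1 was at 64.3, 288, 132, 106 and 136 FPKM and the megalin gene Lrp2 at 13.3, 32.2, 21.1, 15.2 and 18.9 FPKM in mice 1 to 5. With both kidneys left out together, a choice made after seeing the data, the counts after UUO in KDM6ATubKO kidneys were 4 of the 40 higher and 28 lower. With every kidney in the fit they were 5 and 29, beside 57.9% of all genes higher and 16.7% lower. The all-gene shares without these 2 kidneys are not given here.

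**Figure D2:**
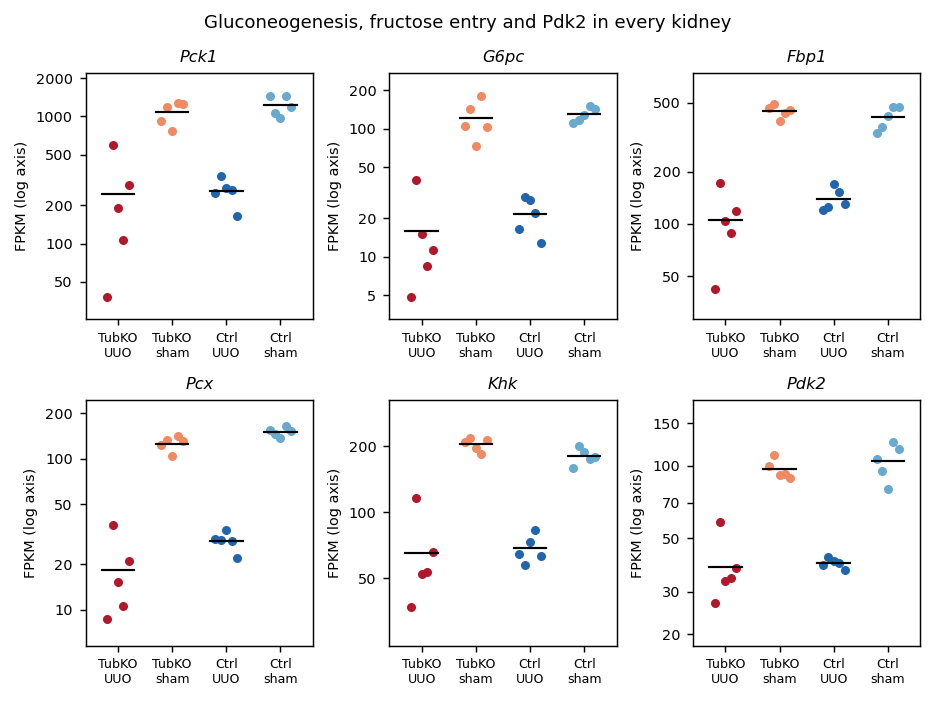
FPKM on a log axis of Pck1, G6pc, Fbp1, Pcx, Khk and Pdk2 in each of the 20 kidneys, by group, with a line at the group mean (n = 5). UUO kidneys lie below sham kidneys in every panel, and the KDM6ATubKO UUO group holds both the lowest and the highest UUO value of Pck1, G6pc, Fbp1, Pcx and Khk.

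Of the 14 glycolysis genes, 3 rose in both genotypes (Hk2, Pfkp and Pkm), while 8 fell in KDM6ATubKO kidneys and 9 in KDM6ACtrl kidneys (with upper quartile rescaling 11 fell in each, with quantile normalization 9 and 10). Of all 13842 genes, 3541 fell in KDM6ATubKO and 3373 in KDM6ACtrl kidneys with upper quartile rescaling, and 4835 and 4848 with quantile normalization. The median log2 fold change was -0.40 in both. Hk2, the hexokinase of insulin-sensitive, proliferating and hypoxic cells, had the largest rise of the 40. It was at 4.76, 3.51, 4.88, 5.47 and 8.87 FPKM in KDM6ATubKO UUO kidneys, against 0.103, 0.180, 0.205, 0.0463 and 0.110 FPKM in sham kidneys. In KDM6ACtrl kidneys it was at 7.94, 7.62, 5.83, 3.98 and 6.36 FPKM after UUO, against 0.126, 0.0505, 0.475, 0.217 and 0.135 FPKM after sham surgery. The ratio of means was 42.8 in KDM6ATubKO and 31.6 in KDM6ACtrl kidneys, on a low sham level, and the log2(FPKM + 1) fold change, which understates the change of a low gene, was 2.48 (adjusted p = 2.70e-10) and 2.59 (adjusted p = 2.32e-10). No gene of the deposited table had a highest group mean under 0.5006 FPKM. The Hk2 sham means, 0.129 and 0.201 FPKM, lay below that, so Hk2 reached it only through its UUO groups.

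Hk1, the hexokinase expressed in most tissues, did not rise with it. Hk1 averaged 7.49 ± 2.55 FPKM in KDM6ATubKO UUO and 10.2 ± 3.64 FPKM in KDM6ATubKO sham kidneys (adjusted p = 0.0929 by limma), and 7.59 ± 1.01 FPKM in KDM6ACtrl UUO and 11.6 ± 1.92 FPKM in KDM6ACtrl sham kidneys (SD, n = 5 each), where it fell with an adjusted p of 0.0216. That call was lost without mouse 1 of the KDM6ACtrl sham group (log2 fold change -0.46, adjusted p = 0.060). In KDM6ATubKO kidneys Hk1 was called lower with upper quartile rescaling (-0.647, adjusted p = 0.0077) and with quantile normalization (-0.774, adjusted p = 0.0023). Hk2 supplied 42.3 ± 11.4% of the summed FPKM of Hk1 and Hk2 in KDM6ATubKO UUO kidneys and 1.35 ± 0.581% in KDM6ATubKO sham kidneys, and 45.1 ± 7.59% in KDM6ACtrl UUO and 1.82 ± 1.64% in KDM6ACtrl sham kidneys.

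Phosphofructokinase, the committed step of glycolysis, moved in opposite directions by isozyme. The muscle-type gene Pfkm was at 7.46, 8.96, 7.82, 6.57 and 6.29 FPKM in KDM6ATubKO UUO kidneys, against 12.7, 19.1, 16.6, 18.7 and 13.9 FPKM in sham kidneys, and at 6.87, 7.70, 8.29, 8.09 and 8.93 FPKM in KDM6ACtrl UUO kidneys, against 16.6, 15.6, 15.2, 17.2 and 14.2 FPKM in sham kidneys. The platelet-type gene Pfkp was at 6.37, 5.34, 8.18, 6.29 and 7.66 FPKM in KDM6ATubKO UUO kidneys, against 2.31, 3.33, 4.36, 3.88 and 2.61 FPKM in sham kidneys, and at 7.10, 7.43, 9.97, 6.40 and 6.99 FPKM in KDM6ACtrl UUO kidneys, against 4.36, 3.79, 3.79, 3.22 and 2.75 FPKM in sham kidneys. Pfkm was 2.18-fold lower and Pfkp 2.05-fold higher in KDM6ATubKO kidneys, and 1.98-fold lower and 2.12-fold higher in KDM6ACtrl kidneys, all 4 past the adjusted threshold and without overlap. Pfkm made up 34.3 ± 4.55% of the summed phosphofructokinase FPKM in KDM6ATubKO UUO kidneys and 57.4 ± 2.35% in sham kidneys of that genotype, with 33.2 ± 3.08% in KDM6ACtrl UUO and 57.1 ± 1.58% in KDM6ACtrl sham kidneys. Pfkl, the liver type, did not pass the test as deposited (log2 fold change -0.19 in KDM6ATubKO and 0.05 in KDM6ACtrl kidneys). In KDM6ACtrl kidneys its sign turned and it was called lower at -0.21 (adjusted p = 0.048) after upper quartile rescaling and at -0.32 (adjusted p = 0.0063) after quantile normalization. In KDM6ATubKO kidneys it was called lower at -0.451 (adjusted p = 0.00018) and at -0.573 (adjusted p = 2.6e-05) with the same scalings.

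The middle and lower steps of glycolysis fell more modestly. Gapdh, Tpi1, Pgk1, Pgam1 and Eno1, which carry carbon from triose phosphates to phosphoenolpyruvate, fell in both genotypes, with log2 fold changes between -0.90 (Pgam1) and -0.41 (Gapdh) in KDM6ATubKO kidneys and between -0.52 (Gapdh) and -0.28 (Tpi1) in KDM6ACtrl kidneys. Aldoa, an aldolase gene of glycolysis, fell in KDM6ATubKO kidneys (-0.25, adjusted p = 0.00313) and had -0.16 (adjusted p = 0.0522) in KDM6ACtrl kidneys. The KDM6ATubKO call was lost with quantile normalization (-0.091, adjusted p = 0.284). In KDM6ACtrl kidneys Aldoa was called lower with upper quartile rescaling (-0.442, adjusted p = 1.3e-05). Gpi1, glucose-6-phosphate isomerase, fell in KDM6ACtrl kidneys (-0.41, adjusted p = 0.00253) and had -0.08 (adjusted p = 0.491) in KDM6ATubKO kidneys, where it was called lower with upper quartile rescaling (-0.375, adjusted p = 0.0046). Pfkfb3, which makes the activator fructose-2,6-bisphosphate, fell by 0.67 in KDM6ATubKO kidneys (adjusted p = 0.0386) and 0.64 in KDM6ACtrl kidneys (adjusted p = 0.0488) on the log2 scale. These calls depended on the fit and on single kidneys. Both were lost with array weights (adjusted p = 0.0508 and 0.0557). The KDM6ACtrl call was also lost with a pseudocount of 0.1 (0.0528), the mouse-number series as a covariate (0.05025) and the length trend removed (0.06005). In KDM6ATubKO mice the call was lost without any of mice 1, 4 or 5 of the UUO group or mice 1, 3 or 5 of the sham group (adjusted p 0.0504 to 0.105), and in KDM6ACtrl mice without any of mice 1, 2 or 4 of the UUO group, mice 1, 2 or 5 of the sham group, or mice 1, 2 or 5 of the KDM6ATubKO UUO group or mouse 3 of the KDM6ATubKO sham group (0.0516 to 0.154). Summed over the 14 genes, FPKM was 549 to 706 in KDM6ATubKO UUO and 838 to 968 in KDM6ATubKO sham kidneys, against 663 to 752 in KDM6ACtrl UUO and 803 to 921 in KDM6ACtrl sham kidneys. Several of these genes (Gapdh, Pgk1, Ldha, Tpi1, Pgam1, Eno1, Pkm and Aldoa) have near-identical processed copies elsewhere in the genome, so that their FPKM are uncertain to the extent that reads were shared.

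Of the lactate dehydrogenase genes, Ldhb, which encodes the subunit of heart and of oxidative tissue, rose in both genotypes. It was at 973, 868, 1072, 942 and 953 FPKM in KDM6ATubKO UUO kidneys, against 586, 652, 614, 642 and 617 FPKM in sham kidneys, and at 999, 784, 825, 847 and 902 FPKM in KDM6ACtrl UUO kidneys, against 482, 553, 559, 579 and 531 FPKM in sham kidneys. It rose 1.55-fold in KDM6ATubKO kidneys (adjusted p = 3.39e-07) and 1.61-fold in KDM6ACtrl kidneys (adjusted p = 1.32e-07), with no overlap. Ldha, the subunit of muscle and of glycolytic cells, had log2 fold changes of -0.02 and 0.12, neither past the test, and its share of the 2 genes' FPKM was 11.3 ± 0.749% in KDM6ATubKO UUO and 16.6 ± 1.52% in KDM6ATubKO sham kidneys, against 12.2 ± 1.80% in KDM6ACtrl UUO and 16.9 ± 1.19% in KDM6ACtrl sham kidneys. With upper quartile rescaling Ldha was called lower in KDM6ATubKO kidneys (-0.319, adjusted p = 0.0026).

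Pkm was the 1 other late glycolytic gene that rose. It was at 62.4, 47.97, 61.7, 40.1 and 57.9 FPKM in KDM6ATubKO UUO kidneys, against 35.9, 45.4, 45.6, 49.01 and 33.4 FPKM in sham kidneys, and at 59.6, 78.7, 52.6, 54.7 and 53.1 FPKM in KDM6ACtrl UUO kidneys, against 40, 37.8, 30.5, 37.6 and 32.1 FPKM in sham kidneys. The groups overlapped in KDM6ATubKO mice (log2 fold change 0.36, adjusted p = 0.0269) and did not in KDM6ACtrl mice (0.72, adjusted p = 0.000130). In KDM6ATubKO kidneys the call was lost after upper quartile rescaling, with the mouse-number series as a covariate, and without any 1 of mice 1, 3 or 5 of the UUO group or mice 1 or 5 of the sham group, or mice 1 and 2 of the UUO group together, with adjusted p from 0.0564 to 0.675 over these.

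**Figure D3:**
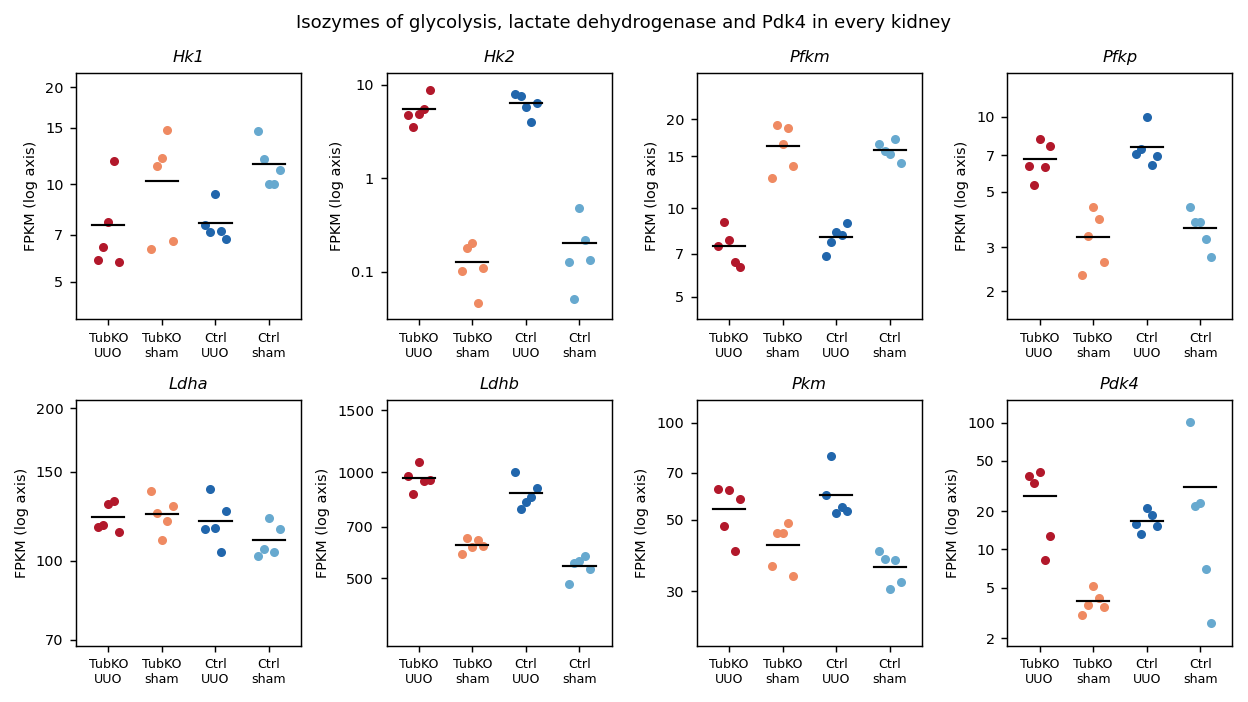
FPKM on a log axis of Hk1, Hk2, Pfkm, Pfkp, Ldha, Ldhb, Pkm and Pdk4 in each of the 20 kidneys, by group, with a line at the group mean (n = 5). Hk2, Pfkp and Ldhb are higher and Pfkm lower in all UUO kidneys than in the sham kidneys of the same genotype, and Pdk4 spans 2.62 to 101 FPKM within the KDM6ACtrl sham group alone.

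All 3 measured genes of the pyruvate dehydrogenase complex fell in both genotypes, with a median log2 fold change of -0.57 in KDM6ATubKO and -0.54 in KDM6ACtrl kidneys. Pdha1, the catalytic alpha subunit, averaged 65.01 ± 9.25 FPKM in KDM6ATubKO UUO and 148 ± 11.7 FPKM in KDM6ATubKO sham kidneys, and 78.3 ± 9.97 FPKM in KDM6ACtrl UUO and 164 ± 6.57 FPKM in KDM6ACtrl sham kidneys (SD, n = 5 each). Its fall, -1.19 in KDM6ATubKO and -1.06 in KDM6ACtrl kidneys on the log2 scale, was larger than that of the beta subunit Pdhb (-0.53 and -0.40) or of Dlat, the acetyltransferase core (-0.57 and -0.54), though these differences between genes were not tested.

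The 3 kinases that switch the complex off did not move together. Pdk2, the most abundant of them on average in sham kidneys, was at 26.9, 58.6, 33.1, 34.3 and 37.6 FPKM in KDM6ATubKO UUO kidneys, against 99.8, 111, 91.4, 92.5 and 88.8 FPKM in sham kidneys, and at 38.7, 41.8, 40.1, 39.5 and 36.9 FPKM in KDM6ACtrl UUO kidneys, against 107, 94.7, 80.3, 125 and 117 FPKM in sham kidneys. It fell in both without overlap (log2 fold change -1.36, adjusted p = 1.24e-07, and -1.37, adjusted p = 1.45e-07). Pdk4, the starvation-induced kinase, was at 37.9, 33.5, 40.6, 8.28 and 12.8 FPKM in KDM6ATubKO UUO kidneys, against 3.04, 3.65, 5.17, 4.18 and 3.55 FPKM in sham kidneys, and at 15.96, 13.1, 21.2, 18.6 and 15.2 FPKM in KDM6ACtrl UUO kidneys, against 101, 22.1, 23.3, 7.04 and 2.62 FPKM in sham kidneys. KDM6ATubKO sham kidneys were uniformly low, and KDM6ACtrl sham kidneys ran from 2.62 to 101 FPKM, lowest in mouse 5 and highest in mouse 1. Pdk4 rose 6.80-fold in KDM6ATubKO kidneys (log2 fold change 2.27, adjusted p = 0.00253) and had a log2 fold change of 0.0035 in KDM6ACtrl kidneys (adjusted p = 0.996), where the ratio of mean FPKM was 0.538. That log2 fold change was 0.64 without mouse 1 of the KDM6ACtrl sham group and -0.57 without mouse 5, neither of them past the threshold. The difference of the 2 responses, 2.27 on the log2 scale, did not pass the test (adjusted p = 0.223). Pdk1 fell in KDM6ACtrl kidneys (-0.42, adjusted p = 0.0220), a call lost with array weights (adjusted p = 0.055) and without mouse 1 of the sham group (0.068) or mouse 1 (0.069) or mouse 3 (0.056) of the UUO group, and it had -0.18 (adjusted p = 0.305) in KDM6ATubKO kidneys. There it was called lower with upper quartile rescaling (-0.43, adjusted p = 0.0175) and with quantile normalization (-0.65, adjusted p = 0.00063).

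Of the 11 TCA cycle genes, 10 fell in each genotype, with a median log2 fold change of -1.01 in KDM6ATubKO and -0.89 in KDM6ACtrl kidneys. The exception was Dlst, the succinyltransferase of the oxoglutarate dehydrogenase complex, whose sham values ran from 8.51 to 40.8 FPKM in KDM6ATubKO and 11.9 to 20.03 FPKM in KDM6ACtrl kidneys. Of these 11 genes, Suclg1 and Suclg2, which encode subunits of succinyl-CoA ligase, fell furthest. Suclg1, its shared alpha subunit, was at 15.6, 27.5, 22.9, 13.3 and 16.2 FPKM in KDM6ATubKO UUO kidneys, against 90.1, 90.2, 86.5, 90.5 and 96.9 FPKM in sham kidneys, and at 29.1, 25.6, 35.9, 30.2 and 25.8 FPKM in KDM6ACtrl UUO kidneys, against 96.2, 86.4, 85.7, 89.95 and 86.96 FPKM in sham kidneys. The means were 4.76-fold lower in KDM6ATubKO kidneys (adjusted p = 7.29e-11) and 3.04-fold lower in KDM6ACtrl kidneys (adjusted p = 9.28e-09). Suclg2, the GTP-forming beta subunit, was 3.50-fold lower in KDM6ATubKO and 2.76-fold lower in KDM6ACtrl kidneys, with UUO values spread from 10.1 to 47.4 FPKM and from 18.2 to 58.7 FPKM. Sucla2, the ATP-forming beta subunit, had log2 fold changes of -0.98 and -0.99.

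Isocitrate dehydrogenase fell in its mitochondrial forms. Idh3b, a subunit of the NAD-dependent enzyme of the cycle, was at 43.98, 50.8, 47.4, 42.8 and 41.98 FPKM in KDM6ATubKO UUO kidneys, against 95.4, 105, 96.5, 97.3 and 96.5 FPKM in sham kidneys, and at 51.6, 46.8, 52.2, 48.4 and 44.6 FPKM in KDM6ACtrl UUO kidneys, against 93.5, 95.4, 97.04, 97.6 and 96.9 FPKM in sham kidneys. The replicates were tight and the fall was 1.10 in KDM6ATubKO (adjusted p = 1.55e-11) and 0.97 in KDM6ACtrl kidneys (adjusted p = 8.60e-11) on the log2 scale. Idh3a, its catalytic subunit, had -0.85 and -0.49, and Idh2, the mitochondrial NADP-dependent enzyme, had -1.27 and -1.15, all past the test. Ogdh, Fh1 and Mdh2, which carry the cycle from oxoglutarate onward to fumarate hydration and oxaloacetate, had log2 fold changes of -1.01, -0.84 and -1.11 in KDM6ATubKO kidneys and -0.85, -0.89 and -0.62 in KDM6ACtrl kidneys. Citrate synthase (Cs) fell least of the 10, by 0.31 and 0.17, and in KDM6ACtrl kidneys its call (adjusted p = 0.0350) was lost without any of most KDM6ACtrl kidneys, with adjusted p from 0.0513 to 0.0793 over these.

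The cytosolic dehydrogenases differed from each other. Mdh1, the cytosolic malate dehydrogenase of the malate-aspartate shuttle, was at 127, 191, 150.4, 166 and 167 FPKM in KDM6ATubKO UUO kidneys, against 358, 358, 327, 364 and 353 FPKM in sham kidneys, and averaged 153 ± 10.9 FPKM in KDM6ACtrl UUO and 299 ± 27.8 FPKM in KDM6ACtrl sham kidneys (SD, n = 5 each). It fell in both. Idh1, the cytosolic NADP-dependent isocitrate dehydrogenase, was at 58.5, 103, 82.2, 53.7 and 72.2 FPKM in KDM6ATubKO UUO kidneys, against 149 ± 15.2 FPKM (mean ± SD, n = 5) with a lowest value of 132 FPKM in sham kidneys, where the groups did not overlap and the fall was 2.02-fold (adjusted p = 0.000714). In KDM6ACtrl kidneys it was at 107, 134, 147, 102 and 98.7 FPKM after UUO, against 65.4, 64.6, 143, 169 and 140.3 FPKM after sham surgery, with 2 of the 5 sham kidneys under every UUO kidney and an adjusted p of 0.684.

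Between genotypes few of the 40 genes passed the test. In sham kidneys none of the 40 passed the adjusted threshold in KDM6ATubKO against KDM6ACtrl mice (limma), beside 1.94% of all genes higher and 3.89% lower. Of all genes called in this comparison 33.3% were higher as deposited, 47.4% after upper quartile rescaling and 41.8% after quantile normalization. The gene-wise F-test also gave 0. The sham groups differed in the trend of level with transcript length, measured as a slope per log2 of length. It ran from -0.0829 to 0.0047 in KDM6ATubKO sham kidneys and from 0.0046 to 0.0761 in KDM6ACtrl sham kidneys. Removing this trend changed no call of the 40 in this comparison. At an unadjusted p below 0.05, 7 of the 40 passed in either direction (6 higher and 1 lower), beside 2974 of all 13842 genes in either direction. The smallest adjusted p, 0.0737, belonged to Mdh2, which was at 118, 111, 113, 106 and 107 FPKM in KDM6ATubKO sham kidneys, against 83.6, 93.4, 96.4, 99.2 and 94.6 FPKM in KDM6ACtrl sham kidneys. The groups did not overlap and the log2 difference was 0.25 (SE 0.08). Ldhb was likewise higher without overlap (0.20, adjusted p = 0.109). Suclg2 was lower without overlap, at 86.9, 94.5, 82.4, 90.6 and 77.98 FPKM in KDM6ATubKO sham kidneys, against 97.3, 98.8, 108, 96.6 and 115 FPKM in KDM6ACtrl sham kidneys (-0.25, adjusted p = 0.767). The share of all genes without overlap was not counted for this comparison, so lack of overlap does not set these genes apart. By the study's own rule, a fold of at least 1.5 with an unadjusted p below 0.05, the 1 member past it was Pdk4, lower by 1.85 on the log2 scale (SE 0.61, adjusted p = 0.0792), beside 0.773% of all genes lower and 0.643% higher. Its value rested on the wide KDM6ACtrl sham group described above: the difference was -1.22 (adjusted p = 0.187) without mouse 1 of that group and -2.42 (adjusted p = 0.0256) without mouse 5.

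In UUO kidneys 2 of the 40 were lower in KDM6ATubKO than in KDM6ACtrl mice and none was higher, beside 3.07% of all genes lower and 2.58% higher. Of the genes called 45.7% were higher as deposited, 55.5% after upper quartile rescaling and 56.2% after quantile normalization. Pgam1, the phosphoglycerate mutase of most tissues, was at 58.5, 59.6, 64.6, 45.2 and 51.8 FPKM in KDM6ATubKO UUO kidneys, against 85.5, 72.9, 79.2, 65.9 and 66.2 FPKM in KDM6ACtrl UUO kidneys, with no overlap (log2 difference -0.40, SE 0.09, adjusted p = 0.0221). Suclg1, whose values are given above, overlapped by 1 kidney of KDM6ATubKO mice (log2 difference -0.63, SE 0.14, adjusted p = 0.0185). Each kept its sign under all 31 alternatives, with adjusted p between 0.0112 and 0.126 for Pgam1 and between 0.00256 and 0.160 for Suclg1. Those that left out a sham kidney, changed the filter or fitted only the compared groups could not turn the sign. Both calls were lost when the fit held only the 2 compared groups (adjusted p = 0.117 and 0.125), without mouse 3 of the KDM6ACtrl UUO group (0.0568 and 0.0514) and without mouse 4 of the KDM6ATubKO UUO group (0.0647 and 0.0539), and that of Pgam1 also without mouse 5 of the KDM6ATubKO UUO group (0.0514). Both were lost as well in the F-test with a library-size covariate (adjusted p = 0.126 and 0.160). Here that covariate shared 2.3% of its variance with genotype.

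At an unadjusted p below 0.05, 12 of the 40 passed in either direction, beside 3407 of all 13842 genes. All 12 were lower, and the all-gene count is not split by direction here. Of the 40, 28 had a negative log2 difference (median -0.14, against 0.00 over all genes). These 12 did not include Pck1 (-0.58, adjusted p = 0.466), G6pc (-0.69, adjusted p = 0.261) or Khk (-0.17, adjusted p = 0.628), whose KDM6ATubKO values were spread from mouse 1 to mouse 2. By the rule of fold and unadjusted p, 3 were lower (Pcx, Suclg1 and Idh1), beside 2.26% of all genes lower and 0.99% higher. Idh3a was at 19.6, 17.4, 19.7, 17.9 and 19.03 FPKM in KDM6ATubKO UUO kidneys, against 22.3, 20.4, 22.7, 21.9 and 21.3 FPKM in KDM6ACtrl UUO kidneys, and did not overlap (-0.21, adjusted p = 0.0643). Cs did not overlap either, at 28.1 to 32.8 FPKM in KDM6ATubKO UUO and 33.1 to 35.4 FPKM in KDM6ACtrl UUO kidneys. For this comparison too, the share of all genes without overlap was not counted. Without mouse 2 of the KDM6ATubKO UUO group 9 of the 40 were lower, Pcx among them (-1.05, adjusted p = 0.00523), whereas without mouse 3 of the KDM6ACtrl UUO group or mouse 4 of the KDM6ATubKO UUO group none was. Of all 13842 genes, 425 were lower with every kidney in the fit, 568 without that mouse 2, 176 without that mouse 3 and 119 without that mouse 4. Median log2 difference of the 20 proximal tubule markers in the same comparison was -0.33, with 2 of them lower (Slc4a4 and Hnf4a), and 5 of 7 urothelial markers were lower too, with sums of 10.3 to 82.4 FPKM in KDM6ATubKO UUO and 25.8 to 688 FPKM in KDM6ACtrl UUO kidneys. Of the 12 macrophage markers, 2 were higher (Itgam and Mrc1), as were 2 of 6 endothelial, 2 of 5 intercalated cell and 1 of 5 thick ascending limb markers. The part of these markers in the values above was not tested.

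The response to UUO did not differ between genotypes for any of the 40 at an adjusted p below 0.05, beside 0.0289% of all genes. The F-test also gave 0, and 10 of the 40 had an unadjusted p below 0.05 (2 higher and 8 lower), beside 2171 of all genes. The smallest adjusted p were those of Mdh2 (0.0771, difference -0.49), Idh3a (0.0912, difference -0.36), Idh1 (0.135, difference -1.15) and Suclg1 (0.138, difference -0.66), each with the more negative response in KDM6ATubKO kidneys. Mdh2 and Suclg1 passed without mouse 2 of the KDM6ATubKO UUO group (adjusted p = 0.0353 and 0.0415). The 2 UUO comparisons and the 2 genotype comparisons use the same 4 groups, so their values are not independent of each other.

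**Figure D4:**
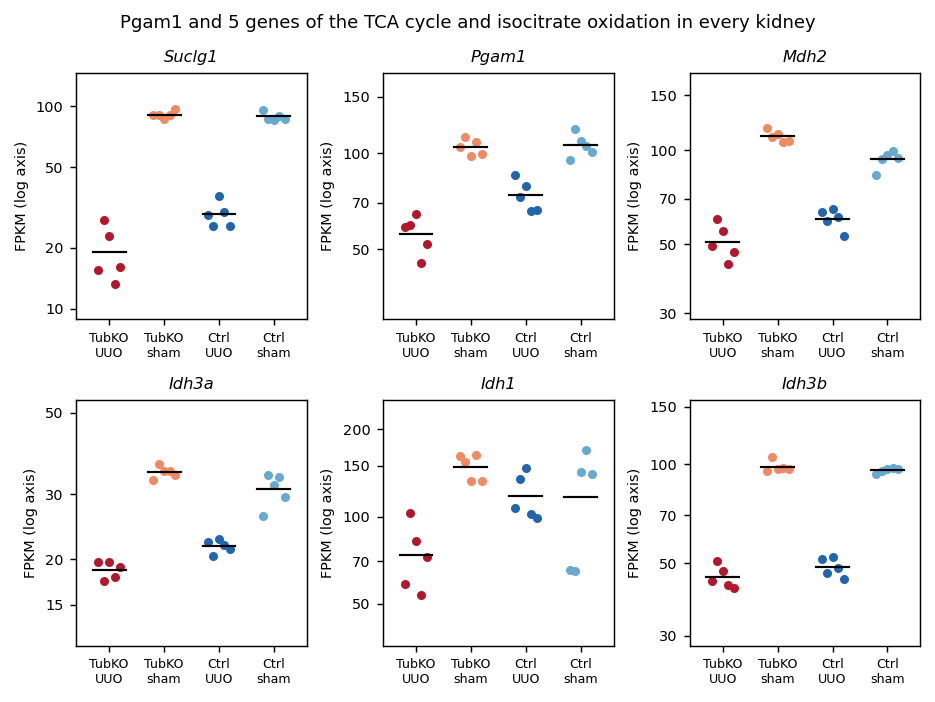
FPKM of Suclg1, Pgam1, Mdh2, Idh3a, Idh1 and Idh3b in each of the 20 kidneys, by group, with a line at the group mean (n = 5). In UUO kidneys Pgam1 and Idh3a of KDM6ATubKO mice lie below all KDM6ACtrl values, and in sham kidneys Mdh2 of KDM6ATubKO mice lies above them.

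The transcript table listed 93 transcripts of the 40 genes. After UUO 8 rose and 46 fell in KDM6ATubKO kidneys, beside 28.1% and 11.7% of 26228 transcripts, and 8 rose and 39 fell in KDM6ACtrl kidneys, beside 26.5% and 9.83%. The M2 transcript Pkm-201 was at 98.6, 68.3, 96.4, 56.8 and 82.5 FPKM in KDM6ATubKO UUO kidneys, against 43.6, 66.1, 47.1, 60.4 and 46.8 FPKM in sham kidneys (log2 fold change 0.59, adjusted p = 0.0342), a call lost without any of mice 1, 3 or 5 of either group (adjusted p 0.0620 to 0.0869). It was at 79.9, 121, 56.5, 76.3 and 73.4 FPKM in KDM6ACtrl UUO kidneys, against 48.5, 35.5, 27.1, 53.8 and 32.3 FPKM in sham kidneys (1.03, adjusted p = 0.000753). The M1 transcript Pkm-202 fell in KDM6ATubKO kidneys, at 5.62, 5.19, 7.55, 1.29 and 3.13 FPKM after UUO, against 4.11, 23.7, 49.96, 36.8 and 22.6 FPKM after sham surgery (-2.15, adjusted p = 0.00501). In KDM6ACtrl kidneys it was at 43.9, 36.95, 47.8, 34.2 and 6.67 FPKM after UUO, against 34.02, 43.9, 38.9, 22.7 and 21.6 FPKM after sham surgery (-0.12, adjusted p = 0.905).

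In UUO kidneys Pkm-202 was thus lower in KDM6ATubKO than in KDM6ACtrl mice (-2.55, adjusted p = 0.0360), with 1 KDM6ACtrl kidney inside the KDM6ATubKO range. The call was lost without any of mice 1 to 4 of the KDM6ACtrl group or mice 1, 4 or 5 of the KDM6ATubKO group (adjusted p 0.0554 to 0.0954), and the difference of the 2 UUO responses did not pass the test (-2.04, adjusted p = 0.423). Pkm-201 made up 94.8 ± 2.20% of the gene's listed FPKM in KDM6ATubKO UUO kidneys and 68.5 ± 15.7% in KDM6ATubKO sham kidneys, and 70.9 ± 13.95% in KDM6ACtrl UUO and 54.8 ± 12% in KDM6ACtrl sham kidneys (SD, n = 5 each). These shares did not pass the test (adjusted p = 0.0567 for UUO in KDM6ATubKO kidneys and 0.232 for genotype in UUO kidneys). A gene's FPKM is not the sum of its transcripts' FPKM in these tables.

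**Figure D5:**
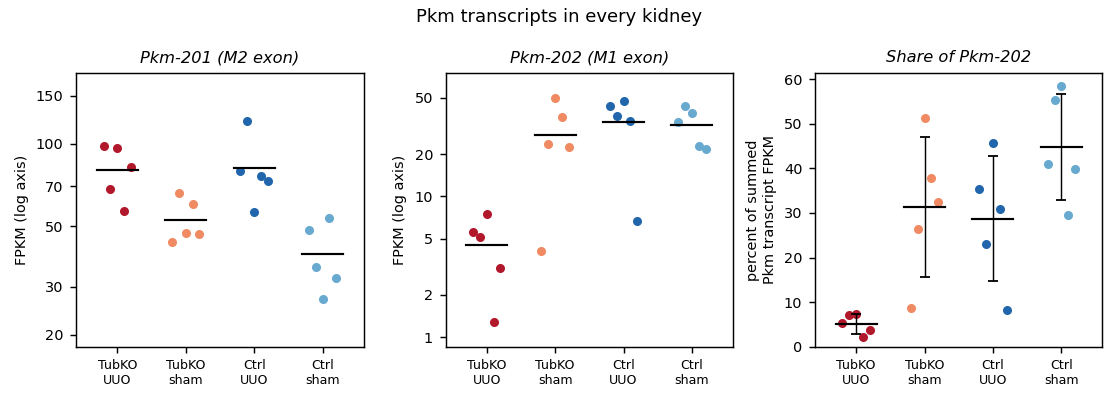
FPKM on a log axis of the M2 transcript Pkm-201 and the M1 transcript Pkm-202, and the share of Pkm-202 in the listed Pkm transcripts as a percent with mean and SD, in each of the 20 kidneys by group (n = 5). Pkm-202 lies between 1.29 and 7.55 FPKM in KDM6ATubKO UUO kidneys and between 6.67 and 47.8 FPKM in KDM6ACtrl UUO kidneys.

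Between genotypes 3 other transcripts passed the test in UUO kidneys, all lower in KDM6ATubKO mice (4 of 93 with Pkm-202, beside 0.839% of all transcripts): 1 each of Pgam1 (-0.40) and Suclg1 (-0.66), and Pcx-204 (-4.21). In sham kidneys 1 was higher, beside 0.233% of all: Ldhb-202 was at 63.5, 54.4, 63.3, 60.7 and 79.5 FPKM in KDM6ATubKO sham kidneys, against 37.8, 30.8, 40.4, 42.9 and 38.2 FPKM in KDM6ACtrl sham kidneys (0.74, adjusted p = 0.0175), with no overlap. That call was lost without mouse 5 of the KDM6ATubKO sham group (adjusted p = 0.0653). The split of Pcx between its transcripts jumped from kidney to kidney. Pcx-204 held 98.9, 98.1, 15.3, 5.09 and 98.8% of the listed Pcx FPKM in KDM6ATubKO sham kidneys and 7.17, 97.1, 98.2, 97.7 and 97.3% in KDM6ACtrl sham kidneys, while the gene's own FPKM stayed within 104 to 141 and 136 to 164 in these groups.

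As shares of their gene, 3 of 73 transcripts passed the test after UUO in KDM6ATubKO kidneys (2 higher, 1 lower), near the 3.99% of all in either direction. In KDM6ACtrl kidneys 5 passed (2 higher, 3 lower, beside 2.89%). In KDM6ATubKO kidneys these were Khk-205 (6.61 percentage points), Khk-204 (-12.99) and Pcx-201 (62.4). In KDM6ACtrl kidneys they were Sucla2-203 (31.7), Khk-205 (3.84), another Sucla2 transcript (-31.7), Ldhb-201 (-6.63) and Tpi1-203 (-0.850). Between genotypes none of the 73 passed in sham kidneys (beside 0.223% of all shares), and 1 did in UUO kidneys, Pcx-201 (73.4 percentage points, adjusted p = 0.0252, beside 0.292%). In sham kidneys 10 of the 73 had an unadjusted p below 0.05, and the share over all transcripts at that level was not counted. The call of Pcx-201 was lost without any single KDM6ACtrl UUO kidney or mouse 1, 4 or 5 of the KDM6ATubKO UUO group (adjusted p 0.05001 to 0.0724).

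Other genes of the same pathways were looked up in lists that did not include the 40. Pairs of log2 fold changes below are for KDM6ATubKO and then KDM6ACtrl kidneys. Counts after UUO as deposited stand beside 57.9% of all genes higher and 16.7% lower in KDM6ATubKO kidneys. In KDM6ACtrl kidneys these shares were 56.7% and 15.1%. Of 16 further glycolysis genes, 10 rose and 4 fell after UUO in KDM6ATubKO kidneys and 9 rose and 4 fell in KDM6ACtrl kidneys, whereas after quantile normalization 4 rose and 7 fell and 4 rose and 8 fell. As deposited, the median of these 16 was 0.413 and 0.261, near the 0.387 and 0.35 of all genes. The phosphoglucomutase gene Pgm1 rose by 1.34 and 1.27 on the log2 scale, and Eno2, the enolase of neurons, rose by 1.31 and 1.16. Hk3, the hexokinase of leukocytes, rose by 1.14 and 1.06. Pgam2, the muscle mutase, had -1.84 and -1.47.

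Of 9 further genes of gluconeogenesis and fructose use, 2 rose and 5 fell in KDM6ATubKO kidneys and 3 rose and 5 fell in KDM6ACtrl kidneys. Slc37a4, the transporter that brings glucose-6-phosphate to glucose-6-phosphatase, had -1.81 and -1.39. Pck2, the mitochondrial phosphoenolpyruvate carboxykinase, moved the other way from Pck1, by 0.94 and 0.98. Of 12 further pyruvate and lactate genes, 2 rose and 8 fell in KDM6ATubKO kidneys and 1 rose and 9 fell in KDM6ACtrl kidneys. Slc16a3, the lactate exporter MCT4 of glycolytic cells, rose by 0.90 and 1.11, while Mpc1, a subunit of the mitochondrial pyruvate carrier, had -1.07 and -1.10.

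Of 14 further TCA genes, 1 rose and 11 fell in each genotype. The dicarboxylate carrier gene Slc25a10 had -1.75 and -1.34. Of 8 pentose phosphate genes, 5 rose and none fell in KDM6ATubKO kidneys and all 8 rose in KDM6ACtrl kidneys, with medians of 0.21 and 0.36 against 0.387 and 0.35 over all genes. After upper quartile rescaling 1 of the 8 rose and 1 fell in KDM6ATubKO kidneys, and 1 rose in KDM6ACtrl kidneys. Of 12 targets of hypoxia-inducible factor other than the 40, 2 rose and 4 fell in each genotype. After quantile normalization 1 rose in each, and the number that fell is not given here. P4ha2, a prolyl hydroxylase subunit gene, rose (0.65 and 0.73), as did Ankrd37 (0.64 and 0.37). Car9, carbonic anhydrase 9, fell (-1.73 and -1.33), as did the mitophagy receptor gene Bnip3 (-0.65 and -0.67).

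A few of these other genes differed between genotypes. The sham groups also differed in the trend of level with transcript length given above, and the values of these genes with that trend removed are not given here. In sham kidneys Mpc2, the partner of Mpc1, was higher in KDM6ATubKO mice, at 39.4, 33.8, 35.7, 32.4 and 36.3 FPKM in KDM6ATubKO and 20.5, 24.8, 24.8, 27.9 and 26.5 FPKM in KDM6ACtrl kidneys (log2 difference 0.50, adjusted p = 0.00433). Slc16a1, the lactate and pyruvate carrier MCT1, was lower, at 3.41, 3.47, 2.45, 4.12 and 3.53 FPKM in KDM6ATubKO and 24.2, 7.26, 11.9, 4.73 and 4.20 FPKM in KDM6ACtrl kidneys (-1.13, adjusted p = 0.0333), with mouse 1 of the KDM6ACtrl group highest as it was for Pdk4. Pdpr, a regulator of pyruvate dehydrogenase phosphatase, was lower in KDM6ATubKO mice in sham (-0.93, adjusted p = 0.00733) and in UUO kidneys (-0.62, adjusted p = 0.0423). Of the 14 further TCA genes, 2 were higher in KDM6ATubKO sham kidneys, the succinate dehydrogenase subunit gene Sdhc (0.25, adjusted p = 0.0445) and the oxoglutarate carrier gene Slc25a11 (0.30, adjusted p = 0.0461), and after quantile normalization 0 were called. None of the 14 passed in UUO kidneys, where 1 was higher and 6 were lower at an unadjusted p below 0.05 and the median was -0.22.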

How the data were processed

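RNA from left kidneys of 20 mice was sequenced with a stranded poly(A) kit. Per the study's methods and the submitters' processing notes, the authors trimmed reads with cutadapt, aligned them to GRCm38 with HISAT2, assembled and quantified transcripts with StringTie and took FPKM from Ballgown. Versions were not given in the sources used here. The deposited FPKM values of 13842 genes and 26228 transcripts were used as given, and read depth is unknown. FPKM depend on the summed output of each library, so a few abundant genes move all others.

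Values were taken as log2(FPKM + 1) for genes with a group mean of at least 0.5 FPKM (none was removed) and fitted with limma 3.58.1 (R 4.3.3), with 1 mean per group, all 20 kidneys sharing the variance estimate, a mean-variance trend and Benjamini-Hochberg adjustment over all genes. UUO was compared with sham surgery in each genotype, KDM6ATubKO with KDM6ACtrl in each surgery, and the 2 UUO responses with each other. All tests are two-sided and measure the spread between mice. The second rule was a fold of at least 1.5 with an unadjusted p below 0.05. Transcript shares were fitted for genes whose transcripts summed to at least 1 FPKM in every kidney (15727 transcripts), with a minimum of 5 as the alternative. Kidneys of a group correlated at 0.957 to 0.988. Replicates were numbered in accession order.

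The 40 genes, the other lists and the tests were chosen with earlier results of these data known. The named genes were all 40 members, Kdm6a, defining marker genes and, of each other pathway list, up to 4 called genes per direction with the largest log2 change. Alternatives were a pseudocount of 0.1, a minimum of 1 FPKM or none, upper quartile and quantile scaling, array weights, only the compared groups, a gene-wise F-test with library size as a covariate (rewritten from what Ballgown is known to do), removal of a length trend, the series of the mouse numbers in the titles as a covariate (1 series held 1 of 5 KDM6ATubKO sham kidneys and 3 of 5 in each other group), a ratio of means and each kidney left out. Leaving out 2 KDM6ATubKO UUO kidneys together was chosen after seeing the data. The script was tested on simulated data. Sequences are from RefSeq tables and the GENCODE vM21 annotation of GRCm38. Some genes of the other lists are counted but not reported by name here.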

Additional observations from a re-analysis of the deposited data

Results flagged for a closer look

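In 15 of 196 groups of 5 kidneys, 1 kidney stood apart from the other 4 by Dixon's test at 95%, which chance alone gives in about 1 of 20 groups. Of the 15, 5 were in mouse 1 of the KDM6ACtrl sham group: Pgk1 at 120.4 FPKM, Pdhb at 36.5 FPKM and Cs at 33.1 FPKM were lower than in the other 4 kidneys, Pdk4 at 101 FPKM was higher, and the share of Pdk1 among the 3 kinases was lower at 3.83%. In mouse 4 of the same group Gapdh was high at 152 FPKM and Fh1 at 61.2 FPKM. In mouse 3 of the KDM6ACtrl UUO group Hk1 was high at 9.35 FPKM, Pfkp at 9.97 FPKM and Sucla2 at 31.4 FPKM, and in mouse 2 of that group Pkm was high at 78.7 FPKM. In KDM6ATubKO sham kidneys Idh3b was high at 105 FPKM in mouse 2, Dlst was high at 40.8 FPKM in mouse 1, Mdh1 was low at 327 FPKM in mouse 3, and the share of Hk2 in Hk1 and Hk2 was low at 0.314% in mouse 4. No such value was found in KDM6ATubKO UUO kidneys. The report's calls that depend on one of these kidneys are given there with the value without it.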

How the results depend on the processing

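Over all 40 genes and every alternative, 6007 of 6360 values were counted as unchanged in direction and side of the threshold. That total holds values that could not change. The fit without a filter was the main fit again, and leaving out a kidney outside the compared groups left the log2 fold change as it was. The ratio of means has no p, and it was counted as unchanged when within the standard error of the main value. With each kidney left out in turn, the number of the 40 higher after UUO was 4 to 5 in KDM6ATubKO and 4 in KDM6ACtrl kidneys, and the number lower was 28 to 30 and 27 to 31. Between genotypes 0 to 1 were higher and 0 to 1 lower in sham kidneys, 0 were higher and 0 to 9 lower in UUO kidneys, and 0 to 2 had a more negative response in KDM6ATubKO kidneys. All-gene counts for most of these fits are not given here. The F-test with a library-size covariate called 0 higher and 0 lower after UUO in both genotypes and 0 lower between genotypes in UUO kidneys. Between genotypes in UUO kidneys its covariate shared 2.3% of its variance with genotype. In the UUO against sham comparisons the covariate nearly coincided with surgery, so the fitted signs of the F-test after UUO have little meaning. They were turned and not called for Pdk4 (-3.71), Pfkp (-2.57), Pkm (-3.33), Ldhb (-0.52), Fh1 (0.23), Khk (0.61) and Pfkfb3 (1.75) in KDM6ATubKO kidneys, and for Cs (0.17), Pgam1 (0.28), Mdh2 (0.11), Pfkfb3 (0.066), Gpi1 (0.061) and Pgk1 (0.69) in KDM6ACtrl kidneys. Pfkl in KDM6ACtrl kidneys was at -0.21 after upper quartile rescaling and -0.32 after quantile normalization. With only the compared groups 0 of the 40, and 0 of all 13842 genes, were lower between genotypes in UUO kidneys, and without mice 1 and 2 of the KDM6ATubKO UUO group 4 of the 40, and 248 of all, were. Array weights gave 1 higher (Mdh2) and 1 lower (Pdk4) of the 40 between genotypes in sham kidneys, and the all-gene counts with these weights are not given here. For the values named here the cause was not tested, other than that the fit of the compared groups alone holds fewer kidneys. Beyond these, FPKM carry no read counts, so counting error could not be separated from the spread between mice. No paired analysis was possible because the labels give no shared replicate numbers.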
